A study of Danio rerio with 15 samples.

Results

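Embryos of the pore-depleted lines MZnup133 and Melys at 4.5 hours post fertilization (hpf) were compared with wildtype embryos at 4 hpf, to ask what stays different when a developmental delay of 0.5 hours is allowed for. The comparison rests on 4 of the 15 libraries of the series. They are MZnup133 at 4.5 hpf (labelled as a nup133 knockout), Melys at 4.5 hpf (labelled as an elys knockout), and 2 wildtype libraries at 4 hpf. The libraries were chosen by genotype and stage. This choice and that of the gene lists below were made with earlier results of these data known. MZnup133 was paired with the wildtype library of its own control set, called the nup133 set, and Melys with that of the elys set. All are poly(A) RNA from whole, dechorionated zebrafish embryos, and the labels do not say how many embryos or clutches a library holds. For scale, the wildtype libraries at 3 and 4.5 hpf (2 at each stage, 1 for each set) and the Tgnup133 library at 4.5 hpf (transgenic overexpression of nup133) were also read. For some genes the depleted libraries at 3 and 4 hpf were read too. The labels give no promoter for that transgene.

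The nuclear pore is a large protein channel through the nuclear envelope, and transcription factors made in the cytoplasm reach the DNA only through it. Nup133 is a scaffold subunit of the Y-complex of the pore, and Elys (gene symbol ahctf1) brings that complex to chromatin when nuclei re-form after mitosis. In zebrafish the first hours run on RNA and protein laid down by the mother. Transcription from the embryo's own genome then starts in waves, while many maternal RNAs are degraded. Embryos that run late therefore hold less zygotic RNA and more maternal RNA than wildtype of the same age.

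Values are FPKM, a deposited measure that scales each gene's fragments by transcript length and library size. Differences are on the scale of log2(FPKM + 1) and are given as depleted minus wildtype. On this scale the change of a low gene is understated. Relative depth was read from the spacing of low FPKM values, with the wildtype library at 4 hpf of the nup133 set as 1.0. It was about 0.66 for MZnup133 and 1.12 for Melys at 4.5 hpf, against 0.624 for the wildtype library of the elys set. No counting interval can be given. Transcripts of 24 adult tissue and blood markers were found in the table, and 0 of them reached a mean of 1 FPKM. In whole embryos, fewer cells of a type and less RNA per cell cannot be told apart.

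The targeted genes were read first. The nup133 transcript (ENSDARG00000010078) was at 0.208 FPKM in MZnup133 and 8.62 FPKM in Melys at 4.5 hpf, against 13.1 and 11.6 FPKM in wildtype at 4 hpf. It was low in MZnup133 only, and the MZnup133 difference was -3.56 ± 0.28 (SE, limma, adjusted p = 0.0247). The ahctf1 transcript (ENSDARG00000077530) was at 31.2 FPKM in MZnup133 and 24.1 FPKM in Melys, against 28.2 and 26.8 FPKM in wildtype. Its level does not check the Melys label, since a mutant RNA can remain.

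Depleted embryos at 4.5 hpf lay closer to wildtype at 4 hpf than to wildtype at 3 or 4.5 hpf. Over 13493 genes, the median absolute difference of MZnup133 was 0.417 and 0.423 from the 2 wildtype libraries at 4 hpf, 0.501 and 0.527 from those at 3 hpf, and 0.671 and 0.56 from those at 4.5 hpf. For Melys it was 0.36 and 0.372 from wildtype at 4 hpf, 0.496 and 0.516 at 3 hpf, and 0.571 and 0.444 at 4.5 hpf. The 2 wildtype libraries of a stage differed from each other by 0.236 at 3 hpf, 0.271 at 4 hpf and 0.318 at 4.5 hpf. So the nearest wildtype stage was still farther away than 2 wildtype libraries are from each other. In MZnup133 19.1% and 20.2% of genes differed by at least 1 from the wildtype libraries at 4 hpf, and in Melys 15.2% and 15.9%. Between the 2 wildtype libraries that share was 8.66%. Tgnup133 at 4.5 hpf lay nearest to wildtype of its own age, at 0.32 and 0.402, and at 0.6 and 0.656 from wildtype at 4 hpf.

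**Figure D1:**
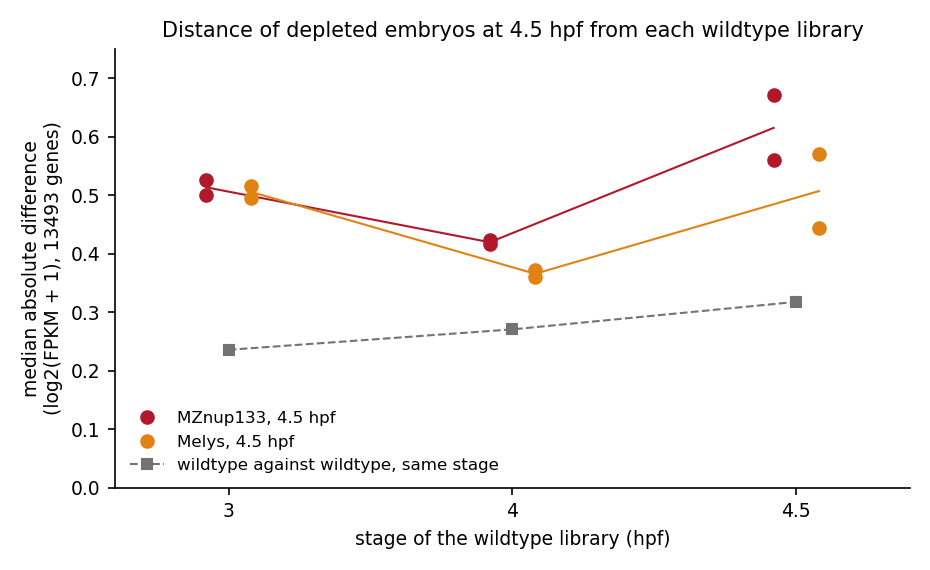
Median absolute difference in log2(FPKM + 1) over 13493 genes (vertical axis) between each depleted library at 4.5 hpf and each wildtype library, by the stage of the wildtype library in hpf (horizontal axis). Circles are single pairs of libraries, lines join the means of 2 pairs, and grey squares give the distance between the 2 wildtype libraries of a stage; both lines have their minimum at 4 hpf, at 0.417 and 0.423 for MZnup133 and at 0.36 and 0.372 for Melys.

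With the mean of both lines tested gene by gene, 142 genes were higher (1.05% of genes tested) and 162 lower (1.2%) than in wildtype at 4 hpf (limma, adjusted p under 0.05). Against wildtype at 4.5 hpf, the same 2 depleted libraries had 1907 genes higher (14.1%) and 1078 lower (7.99%). These comparisons share the depleted libraries. The median absolute difference over all genes was 0.306 against wildtype at 4 hpf and 0.502 against wildtype at 4.5 hpf. Of the 304 genes called against wildtype at 4 hpf, 259 had the same sign in both pairs, and 159 differed by at least 1 in each pair, 74 of them higher and 85 lower. MZnup133 alone had 130 genes higher (0.963%) and 170 lower (1.26%), and Melys alone had 26 higher (0.193%) and 38 lower (0.282%). Over all genes the paired differences of the 2 lines correlated weakly (Pearson's r = 0.2 over 13493 genes, which are not independent), and 5860 genes had opposite signs in the lines. The calls rest on 2 residual degrees of freedom, all from pairs of wildtype libraries, and leaving out any 1 of the 6 wildtype libraries left 0 calls at an adjusted p of 0.05, as did a fit of the 4 libraries alone with the pair as a block. The 304 calls became 611 with a filter at a mean of 5 FPKM (271 higher and 340 lower) and 1219 with no filter, of which 980 were higher and 239 lower. Of the 142 genes called higher, 42 passed the filter on low values through the depleted libraries alone, with a mean under 1 FPKM over the 9 wildtype and Tgnup133 libraries, so their calls support no direction. With a pseudocount of 0.1 the calls were 87 higher and 153 lower. Unadjusted, 3188 genes were under 0.05, 1767 to 3221 with 1 wildtype library left out, and 1101 in the 4 libraries alone.

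Genes were also sorted by their course in wildtype, using for each line the wildtype libraries of the other control set. Early rising genes gained at least 1 by 4 hpf, late rising genes gained it only after 4 hpf, early and late cleared genes lost it in the same intervals, and stable genes moved by less than 0.5. Early rising genes in the depleted lines lay slightly below the wildtype level of 4 hpf in the median, and nearer to it than to that of 4.5 hpf. Their median difference was -0.13 in MZnup133 (993 genes, middle 50% from -0.85 to 0.59) and -0.10 in Melys (961 genes, -0.85 to 0.61), against -0.73 and -0.77 from wildtype at 4.5 hpf. As a yardstick, the median difference between the 2 wildtype libraries at 4 hpf was taken over these genes. Divided by the square root of 2, its absolute size was 0.171 and 0.104, and the differences from 4 hpf were no larger. The class was chosen for a high value in 1 of these 2 libraries, which can widen the yardstick. It therefore cannot decide whether the lines were below wildtype. With a pseudocount of 0.1 both medians were 0, and with no filter they were -0.057 in MZnup133 and -0.022 in Melys. Their mean level of 2.78 in MZnup133 lay between wildtype means of 1.36 at 3 hpf and 2.9 at 4 hpf, which by linear interpolation places it at 3.92 hpf. In Melys the same reading gave 3.95 hpf. Genes that rose by at least 2 by 4 hpf were farther below, with medians of -0.32 in MZnup133 and -0.26 in Melys against wildtype at 4 hpf. Late rising genes had medians of 0 in MZnup133 (570 genes) and 0.09 in Melys (617 genes) and were placed at 4.06 and 4.12 hpf.

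Against the wildtype library of its own control set, each line gave a different reading for maternal RNA. Line and control set cannot be told apart here. In MZnup133, early cleared genes were 0.31 above wildtype at 4 hpf in the median (968 genes) and late cleared genes 0.22 above (914 genes), which placed these classes at 3.71 and 3.59 hpf. In Melys the medians were -0.09 (1273 genes) and -0.17 (1366 genes), at 4.04 and 4.12 hpf. Against wildtype of the same age, both classes were above in both lines, by 1.0 and 1.01 in MZnup133 and by 0.52 and 0.46 in Melys. Stable genes were at 0.01 in MZnup133 and 0.06 in Melys. With the 4 hpf library of the other set, in which the classes were also chosen, early cleared genes were at 0.41 in MZnup133 and 0.33 in Melys. Late cleared genes were then at -0.23 and -0.28, and early rising genes at -0.39 and -0.37. Early cleared genes were chosen for a low value in that library, and late cleared and early rising genes for a high one. These signs follow in part from that choice and show no agreement between the lines. No test of the difference between the lines was run on the class medians.

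**Figure D2:**
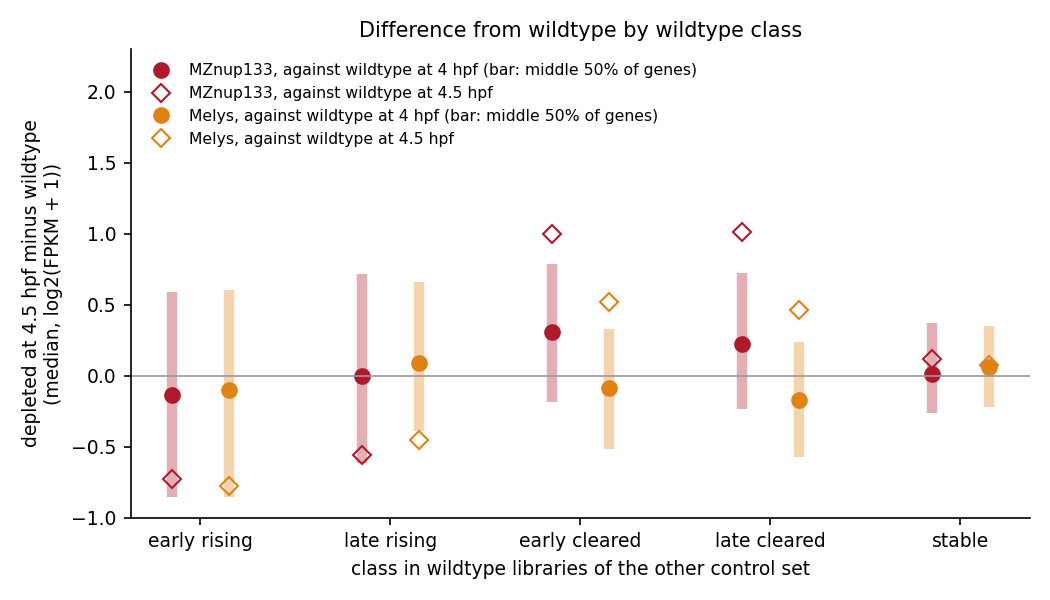
Median difference of depleted embryos at 4.5 hpf from the wildtype library of their own control set (vertical axis, log2(FPKM + 1)) for 5 classes of genes defined in wildtype (horizontal axis). Filled circles with bars give the median and middle 50% against wildtype at 4 hpf, open diamonds the median against wildtype at 4.5 hpf; for early rising genes the medians are -0.13 and -0.73 in MZnup133, and -0.10 and -0.77 in Melys.

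Among 570 genes that were early rising in both control sets, 23 fell and 4 rose against wildtype at 4 hpf (limma), where all genes gave 162 and 142. In this class 72 genes (12.6%) were lower by at least 1 in both pairs, against 2.17% of all genes tested, and 15 (2.63%) were higher by as much in both, against 2.39%. Late rising genes went the other way, with 7 called higher and 0 lower of 193 (1 of them was lower and 21 were higher by at least 1 in both pairs). The wildtype libraries at 4 hpf both defined these classes and served as the comparison, so these counts are a description and support no direction. Against wildtype at 4.5 hpf, 285 of the 570 early rising genes and 100 of the 193 late rising genes were called lower. Of all genes tested, 7.99% were called lower there. The late rising class was chosen for a high level in the wildtype libraries at 4.5 hpf, so its count follows in part from that choice.

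Among 55 measured genes of an early zygotic list, 3 fell and 1 rose against wildtype at 4 hpf, where 33 fell and 5 rose against wildtype at 4.5 hpf. Of all genes tested, 1.2% fell and 1.05% rose in the first comparison and 7.99% fell and 14.1% rose in the second. The median was -0.46 against wildtype at 4 hpf and -1.54 against wildtype at 4.5 hpf, and 25 of the 55 were lower in both pairs while 7 were higher in both. Over all 13493 genes, 3303 were lower and 4124 higher in both pairs, and the median was 0.03. Not every list member rose in wildtype. From 3 to 4.5 hpf, otx1 fell from 127 and 139 FPKM to 18.4 and 37.5 FPKM, and il17rd from 62.3 and 48.8 FPKM to 21.5 and 30.4 FPKM. The row sox19a was at 0.423 FPKM or less in wildtype. Among the 5 that rose against wildtype at 4.5 hpf are otx1 and sox19a.

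The list member farthest below wildtype among those that fell was nnr (ENSDARG00000058917). It was at 101 FPKM in MZnup133 and 58.3 FPKM in Melys at 4.5 hpf, against 261 and 298 FPKM in wildtype at 4 hpf. Both depleted libraries lay under both wildtype libraries, and the difference was -1.85 ± 0.14 (SE, limma, adjusted p = 0.0272). In wildtype at 4.5 hpf it stood at 530 and 466 FPKM, a level still higher than at 4 hpf.

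The zinc finger gene blf, which is needed for cell movements in the zebrafish gastrula, was at 157 FPKM in MZnup133 and 200 FPKM in Melys, against 373 and 370 FPKM in wildtype at 4 hpf. Both depleted values lay far outside the narrow wildtype pair, with a difference of -1.06 ± 0.10 (adjusted p = 0.0348). The gene sox3, a SoxB1 transcription factor of the early neural ectoderm, was at 56.1 and 55.9 FPKM, against 136 and 107 FPKM in wildtype at 4 hpf, a difference of -1.09 ± 0.14 (adjusted p = 0.0484). Unlike nnr and blf, sox3 had already levelled off in wildtype, at 130 and 98.5 FPKM at 4.5 hpf.

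A further row of the early zygotic list, sox19a, was called higher because of MZnup133 alone. It was at 56.6 FPKM in MZnup133 and listed at 0 in Melys, against 0.266 FPKM and a listed 0 in wildtype at 4 hpf. Wildtype at 4.5 hpf held 0.423 and 0.145 FPKM, so this row was near 0 in wildtype at both stages. The difference between the lines passed the threshold (limma, adjusted p = 0.0298).

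The chemokine receptor gene cxcr4a, which guides endodermal cells, was at 62.5 FPKM in MZnup133 and 51.4 FPKM in Melys, against 121 and 138 FPKM in wildtype at 4 hpf. It fell by 1.18 ± 0.14 (adjusted p = 0.0457), with no overlap between the groups. The maternal gene foxh1, the DNA-binding partner of Smad2 in Nodal signalling, was at 55.2 and 75.5 FPKM, against 128 and 128 FPKM in wildtype at 4 hpf. Its difference was -0.97 ± 0.12 (adjusted p = 0.0478), and wildtype at 4.5 hpf held 93.0 and 110 FPKM. Thus both depleted libraries were also below wildtype of their own age for this gene. At 3 hpf foxh1 was already lower, at 40.1 FPKM in MZnup133 and 89.3 FPKM in Melys, against 124 and 110 FPKM in wildtype.

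**Figure D3:**
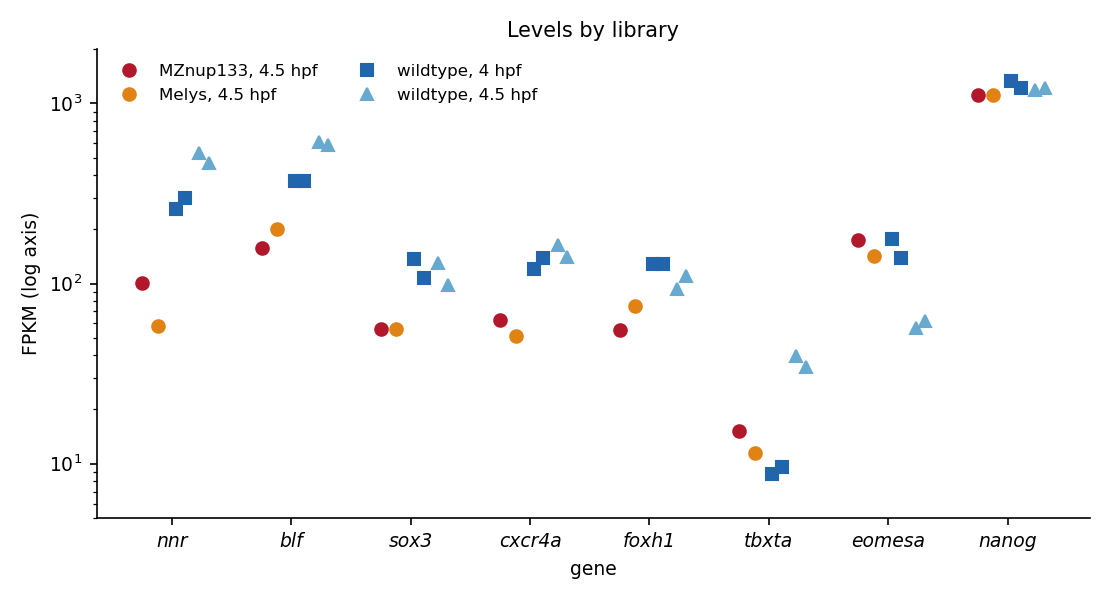
FPKM on a log axis (vertical) of 8 genes (horizontal) in MZnup133 and Melys at 4.5 hpf (circles), both wildtype libraries at 4 hpf (squares) and both at 4.5 hpf (triangles). The left 5 genes were called lower against wildtype at 4 hpf, and both depleted libraries lie below all wildtype libraries at both stages; tbxta, eomesa and nanog were picked after their values were seen, as genes within or near the wildtype range of 4 hpf.

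Several other early zygotic genes were near the 4 hpf level or above it, though none of those named here was called. They were picked after their values were seen. In MZnup133, ndr2 and polr3gla were still below both wildtype libraries at 4 hpf. The T-box gene tbxta, a mesoderm regulator, was at 15.1 FPKM in MZnup133 and 11.4 FPKM in Melys, against 8.76 and 9.56 FPKM in wildtype at 4 hpf and 39.8 and 34.5 FPKM in wildtype at 4.5 hpf. It lay slightly above the 4 hpf pair (0.47 ± 0.23, adjusted p = 0.3) and fell against 4.5 hpf (-1.43, adjusted p = 0.0252). The Nodal ligand gene ndr2 was at 2.24 and 2.71 FPKM, against 2.44 and 2.43 FPKM in wildtype at 4 hpf and 9.03 and 7.34 FPKM at 4.5 hpf. The dorsal BMP inhibitor gene chrd was at 5.8 and 10.2 FPKM, against 2.81 and 4.79 FPKM in wildtype at 4 hpf (0.89 ± 0.29, adjusted p = 0.178) and 30.1 and 27.9 FPKM at 4.5 hpf. The polymerase III subunit gene polr3gla was at 30.8 and 60.4 FPKM, around the 43.6 and 43.4 FPKM of wildtype at 4 hpf and far below the 183 and 130 FPKM of wildtype at 4.5 hpf.

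The neuroectoderm list had the lowest median of the germ layer and tissue lists, -0.65 over 14 genes. Of these, 11 were lower in both pairs and 0 were higher in both, while 1 fell (sox3) and 1 rose (sox19a, in MZnup133 alone) by the test. Of all genes tested, 1.2% fell and 1.05% rose. Over all 13493 genes, 3303 were lower and 4124 higher in both pairs, counts that also stand behind the lists below. Among members that did not pass, the neural transcription factor gene sox11a was at 28.1 FPKM in MZnup133 and 29.8 FPKM in Melys, against 69.9 and 62.0 FPKM in wildtype at 4 hpf (-1.16 ± 0.18, adjusted p = 0.0637). The head gene otx2a was at 1.78 and 2.81 FPKM, against 8.52 and 4.85 FPKM (-1.20 ± 0.26, adjusted p = 0.1). The maternal SoxB1 gene sox19b was at 224 and 202 FPKM, against 282 and 284 FPKM in wildtype at 4 hpf and 43.7 and 82.9 FPKM at 4.5 hpf. It stood just under the 4 hpf level and well above the 4.5 hpf level, where the difference passed (1.81, adjusted p = 0.022).

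In the mesoderm and endoderm list, 1 of 24 genes fell (cxcr4a) and 0 rose against wildtype at 4 hpf, with a median of -0.34, where 16 fell and 2 rose against wildtype at 4.5 hpf, with a median of -1.48. By line, the median against wildtype at 4 hpf was -0.74 in MZnup133 and 0.11 in Melys. Of all genes, 1.2% fell and 1.05% rose at 4 hpf, and 7.99% fell and 14.1% rose at 4.5 hpf, shares that also stand behind the next lists. The dorsal organizer list had 0 of 17 called against wildtype at 4 hpf, with a median of -0.37, and 11 called lower against wildtype at 4.5 hpf. By line, its median against wildtype at 4 hpf was -0.205 in MZnup133 and -0.027 in Melys. The ventral and BMP list had 0 of 19 called, with a median of -0.35, and 10 called lower against wildtype at 4.5 hpf. The largest differences among its uncalled members were smad6a, an inhibitory Smad gene, at 0.15 FPKM in MZnup133 and 0.179 FPKM in Melys, against 5.34 and 4.12 FPKM in wildtype at 4 hpf (-2.29 ± 0.42, adjusted p = 0.0752), and the BMP pseudoreceptor gene bambia at 27.1 and 3.26 FPKM, against 41.6 and 27.2 FPKM (-1.66 ± 0.28, adjusted p = 0.0691). In wildtype at 4.5 hpf, smad6a was at 0.81 and 0.888 FPKM.

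For the outer cover of the embryo, the enveloping layer and epidermis list had 0 of 22 genes called against wildtype at 4 hpf, with a median of -0.35. Of the 22, 17 had a negative difference, 10 were lower in both pairs and 3 were higher in both. Against wildtype at 4.5 hpf 12 were lower and 1 higher, where 7.99% of all genes were lower and 14.1% higher. The keratin gene krt18a.1 was at 16.8 FPKM in MZnup133 and 35.7 FPKM in Melys, against 43.2 and 42.0 FPKM in wildtype at 4 hpf, so both depleted libraries were lower (-0.77 ± 0.17, adjusted p = 0.105). The next genes are of the minority with a positive difference. The keratin gene krt8 was at 8.12 FPKM in MZnup133 and 21.4 FPKM in Melys, against 9.56 and 13.7 FPKM in wildtype at 4 hpf and 111 and 87.7 FPKM at 4.5 hpf. The depleted values bracketed the 4 hpf pair, and the difference was 0.20 ± 0.35 (adjusted p = 0.773), against -2.80 at 4.5 hpf (adjusted p = 0.019). For the epidermal regulator grhl3 the lines were at 143 and 21.3 FPKM, against 13.8 and 10.7 FPKM (2.11 ± 0.57, adjusted p = 0.138).

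The yolk syncytial layer list had 7 measured genes, 0 called against wildtype at 4 hpf and 6 called lower against wildtype at 4.5 hpf, with medians of -0.42 and -2.93 (7.99% of all genes were lower at 4.5 hpf), the widest gap between the 2 comparisons among the lists. The lines differed in sign against wildtype at 4 hpf, with medians of -0.77 in MZnup133 and 0.24 in Melys. The transcription factor gene gata6 was at 0.807 FPKM in MZnup133 and 1.4 FPKM in Melys, against 0.267 and 0.205 FPKM in wildtype at 4 hpf and 23.6 and 16.2 FPKM at 4.5 hpf. Both depleted libraries lay just above the 4 hpf pair and far under the 4.5 hpf pair. The homeobox gene mxtx1, which acts in the yolk syncytial layer, split the lines, at 1.02 FPKM in MZnup133 and 14.9 FPKM in Melys, against 14.4 and 15.8 FPKM in wildtype at 4 hpf. Its fitted difference between the lines was -2.89 ± 0.36 (adjusted p = 0.0669), which did not pass.

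Lists of maternal genes also sat near the 4 hpf level. In the maternal oocyte list 0 of 29 genes were called against wildtype at 4 hpf, with a median of 0.12 (0.35 in MZnup133 and -0.08 in Melys), where 11 rose and 1 fell against wildtype at 4.5 hpf (14.1% of all genes rose and 7.99% fell). The antiproliferative gene btg4, an adaptor for deadenylation of maternal mRNA, was at 74.8 FPKM in MZnup133 and 83.8 FPKM in Melys, against 43.3 and 70.8 FPKM in wildtype at 4 hpf and 16.3 and 25.3 FPKM at 4.5 hpf. The germ plasm organizer gene buc was at 130 and 82.1 FPKM, around the 96.3 and 103 FPKM of wildtype at 4 hpf and above the 23.8 and 39.7 FPKM of wildtype at 4.5 hpf. The germ plasm list had 0 of 18 called and the maternal RNA clearance list 0 of 24, with medians of 0.02 and -0.02. Against wildtype at 4 hpf 1.05% of all genes rose and 1.2% fell, shares that also stand behind the lists below. At such shares, 0 calls in lists of this size say little.

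The list of genome activators had 20 genes, 1 lower (foxh1) and 0 higher, with a median of 0.00. The transcription factor gene nanog was at 1108 FPKM in MZnup133 and 1115 FPKM in Melys, against 1329 and 1221 FPKM in wildtype at 4 hpf (-0.20 ± 0.07, adjusted p = 0.203). Its partner pou5f3 was at 432 and 693 FPKM, against 527 and 516 FPKM (0.07 ± 0.07, adjusted p = 0.592). The maternal T-box gene eomesa was at 175 and 143 FPKM, against 177 and 139 FPKM in wildtype at 4 hpf and 56.6 and 62.0 FPKM at 4.5 hpf, so its depleted values were near the 4 hpf pair and stood above the 4.5 hpf pair (1.40, adjusted p = 0.015).

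**Figure D4:**
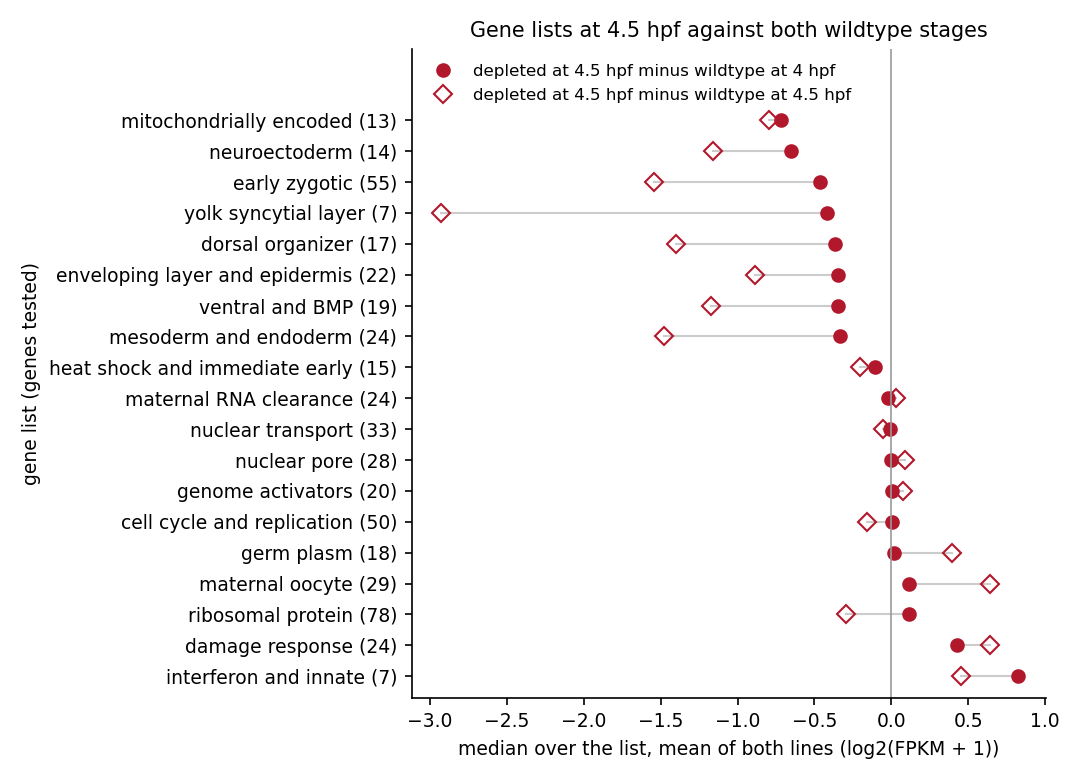
Median difference (horizontal axis, log2(FPKM + 1), mean of both lines) for each gene list (vertical axis, with the number of genes tested). Filled circles compare depleted embryos at 4.5 hpf with wildtype at 4 hpf and open diamonds with wildtype at 4.5 hpf; the yolk syncytial layer list is at -0.42 against wildtype at 4 hpf and -2.93 against wildtype at 4.5 hpf, and the mitochondrially encoded genes are at -0.72 and -0.80.

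Mitochondrially encoded transcripts were lower against both wildtype stages. These genes lie on the mitochondrial DNA and encode subunits of the respiratory chain and of ATP synthase. All 13 were lower in both pairs, 4 passed the test, and the median was -0.72 against wildtype at 4 hpf and -0.80 against wildtype at 4.5 hpf, where 12 passed. Of all 13493 genes, 3303 were lower in both pairs. By the test 1.2% of all genes were lower at 4 hpf and 7.99% at 4.5 hpf, so the counts of 4 and 12 cannot be compared directly. They made up 5.63% of the FPKM sum in MZnup133 and 5.31% in Melys at 4.5 hpf, against 8.74% and 8.65% in wildtype at 4 hpf. The complex I subunit gene mt-nd4l was at 1141 and 1079 FPKM, against 2450 and 2322 FPKM in wildtype at 4 hpf (-1.10 ± 0.09, adjusted p = 0.029). The cytochrome b gene mt-cyb was at 3303 and 2826 FPKM, against 5311 and 4759 FPKM (-0.72 ± 0.07, adjusted p = 0.0348). For both genes the depleted values were also below wildtype at 3 hpf, which held 1920 and 1923 FPKM of mt-nd4l and 3805 and 3519 FPKM of mt-cyb. The depleted lines at 3 hpf held 1222 FPKM (MZnup133) and 941 FPKM (Melys) of mt-nd4l, and 3700 and 1607 FPKM of mt-cyb. The complex I genes mt-nd4 (-1.09 ± 0.09, adjusted p = 0.0314) and mt-nd2 (-0.64 ± 0.07, adjusted p = 0.0423) were the other 2 that passed. Because FPKM are shares of a library, a lower mitochondrial share raises all other genes slightly; with all libraries set to 1 sum over the remaining genes, the list median was -0.74.

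Among genes of the damage response most values were higher, and few passed the test. DNA damage and other stress switch on genes for cell cycle arrest, repair and apoptosis. Over all 13493 genes, 4124 were higher and 3303 lower in both pairs. Of 24 measured genes of this list, 15 were higher in both pairs and 1 was lower in both, and the median was 0.42 (0.36 in MZnup133 and 0.75 in Melys). By the test 1 was higher (bbc3), where 1.05% of all genes were, and 0 were lower. Against wildtype at 4.5 hpf, 7 rose and 2 fell, with a median of 0.64, where 14.1% of all genes rose and 7.99% fell, so the 2 that fell are near the share of all genes. Apart from bbc3, the genes below did not pass the test of both lines.

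The apoptosis gene bbc3 (also called puma) was at 4.47 FPKM in MZnup133 and 47.6 FPKM in Melys at 4.5 hpf, against 1.75 and 2.85 FPKM in wildtype at 4 hpf. Both depleted libraries were above all 6 wildtype libraries, and the mean difference of 2.33 ± 0.29 passed (adjusted p = 0.0457). The difference between the lines was -3.07 ± 0.47 (MZnup133 minus Melys, adjusted p = 0.0878) and did not pass.

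The growth arrest gene gadd45aa was at 8.07 FPKM in MZnup133 and 61.2 FPKM in Melys, against 2.36 and 6.11 FPKM in wildtype at 4 hpf (2.28 ± 0.35, adjusted p = 0.0636). The cyclin-dependent kinase inhibitor gene cdkn1a (p21) was at 16.4 and 47.5 FPKM, against 4.43 and 12.4 FPKM (1.77 ± 0.40, adjusted p = 0.104). In wildtype at 4.5 hpf it was at 8.19 and 7.83 FPKM, so both depleted libraries exceeded every wildtype library at these 2 stages.

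The gene sesn1, a stress-induced regulator of growth signalling, was at 11.6 FPKM in MZnup133 and 103 FPKM in Melys, against 15.9 and 18.2 FPKM in wildtype at 4 hpf (1.01 ± 0.18, adjusted p = 0.0722). The Melys library stood apart from wildtype for this gene and the MZnup133 library did not. In the test of Melys alone sesn1 passed (2.54 ± 0.23, adjusted p = 0.0489), where 0.193% of all genes were called higher, and so did its difference between the lines (-3.07 ± 0.29, adjusted p = 0.0432). The BH3-only apoptosis gene pmaip1 (noxa) was at 21.5 and 24.4 FPKM, against 6.3 and 7.9 FPKM (1.57 ± 0.31, adjusted p = 0.0857). For the ubiquitin ligase gene mdm2 the values were 45.8 and 76.7 FPKM, against 14.8 and 37.5 FPKM (1.29 ± 0.42, adjusted p = 0.176).

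**Figure D5:**
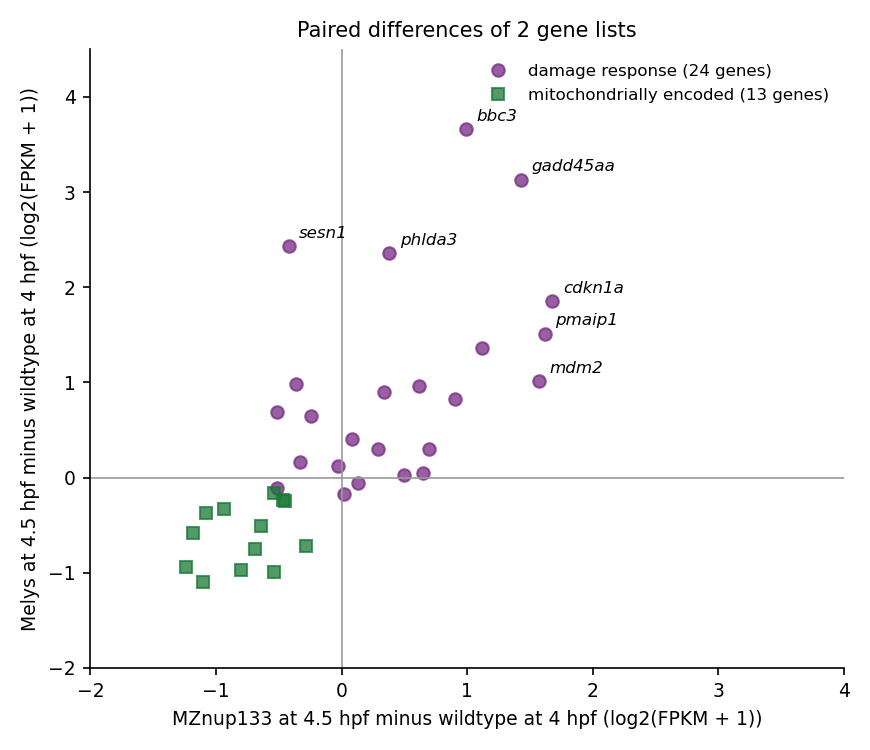
Difference of MZnup133 (horizontal axis) and Melys (vertical axis) at 4.5 hpf from the wildtype library of their own control set at 4 hpf, in log2(FPKM + 1), for 24 genes of the damage response list (circles) and 13 mitochondrially encoded genes (squares). All 13 mitochondrially encoded genes lie below 0 on both axes, and 15 of the 24 damage response genes lie above 0 on both.

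Further lists had few or no calls. Of 15 heat shock and immediate early genes 0 were called, with a median of -0.11. Of 7 measured interferon and innate genes 0 were called, and their median of 0.82 was the largest of the list medians in absolute size, with 5 genes higher and 2 lower in both pairs. The ubiquitin-like modifier gene isg15 was at 34.7 FPKM in MZnup133 and 337 FPKM in Melys, against 27.3 and 74.7 FPKM in wildtype at 4 hpf (1.25 ± 0.38, adjusted p = 0.163). The interferon regulatory factor gene irf7 was at 1.45 and 0.321 FPKM, against 3.99 and 6.02 FPKM (-1.72 ± 0.23, adjusted p = 0.0531). The nuclear pore list had 28 genes, with 1 call (nup133 itself) and a median of 0.00, and the nuclear transport list 33 genes with 1 call (xpo6, exportin of actin) and a median of -0.01. For xpo6 the values were 0 (as listed) in MZnup133 and 36.1 FPKM in Melys, against 111 and 54.5 FPKM in wildtype at 4 hpf. The difference between the lines was called (adjusted p = 0.0179).

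Of 50 cell cycle and replication genes 4 fell and 0 rose (1.2% of all genes fell and 1.05% rose), with a median of 0.01. The mitotic activator gene cdc20 was at 462 FPKM in MZnup133 and 616 FPKM in Melys, against 746 and 812 FPKM in wildtype at 4 hpf (-0.54 ± 0.07, adjusted p = 0.0444). Already at 3 hpf cdc20 was lower, at 495 FPKM in MZnup133 and 653 FPKM in Melys, against 752 and 861 FPKM in wildtype. The condensin subunit gene ncapg was listed at 0 in MZnup133 and at 1.73 FPKM in Melys, against 67.9 and 74.6 FPKM in wildtype at 4 hpf (adjusted p = 0.0181). The other 2 calls were the 2 rows that share the symbol rrm2, a ribonucleotide reductase subunit, in which the lines stood on opposite sides of wildtype. The row ENSDARG00000078069 was at 750 FPKM in MZnup133 and 7.09 FPKM in Melys, against 321 and 293 FPKM. The row ENSDARG00000020711 was at 41.8 FPKM in MZnup133 and 993 FPKM in Melys, against 449 and 481 FPKM. In Tgnup133 at 4.5 hpf these rows were at 5.25 and 1319 FPKM, low and high as in Melys. Summed over both rows, rrm2 was at 792 FPKM in MZnup133 and 1000 FPKM in Melys, against 770 and 775 FPKM in wildtype at 4 hpf, and reads of such copies may have been split between them.

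Of 78 ribosomal protein genes 1 rose (rpl10) and 0 fell, with a median of 0.12 (-0.12 in MZnup133 and 0.37 in Melys). The gene rpl10, of the large ribosomal subunit, was at 225 FPKM in MZnup133 and 264 FPKM in Melys, against 33.7 and 34.1 FPKM in wildtype at 4 hpf and 57.0 and 41.3 FPKM at 4.5 hpf (2.81 ± 0.21, adjusted p = 0.0272). Both depleted values were several times any wildtype value. This was so at 3 hpf too, where rpl10 was at 199 FPKM in MZnup133 and 225 FPKM in Melys, against 20.2 and 26.2 FPKM in wildtype. The linker histone gene histh1l was at 174 and 87.1 FPKM, against 6.62 and 8.52 FPKM in wildtype at 4 hpf and 31.9 and 24.9 FPKM at 4.5 hpf (3.87 ± 0.25, adjusted p = 0.0219). Tgnup133 at 4.5 hpf held 70.9 FPKM of histh1l, also above all 6 wildtype libraries. Histone genes have near-identical copies, so the level of histh1l is uncertain.

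Some genes stood outside the 6 wildtype libraries sampled at 3, 4 and 4.5 hpf; stages before and between were not measured. Counted at a distance of at least 1 from the highest or lowest of the 6 wildtype libraries, MZnup133 had 400 genes above (2.96%) and 305 below (2.26%), and Melys had 242 above (1.79%) and 196 below (1.45%). For scale, Tgnup133 at 4.5 hpf had 123 above (0.912%) and 277 below (2.05%). Both depleted lines were above for 85 genes (0.63%) and below for 67 (0.497%), which together make 21.6% of the 705 genes of MZnup133 and 34.7% of the 438 genes of Melys. Of these, Tgnup133 was also beyond the range for 12 above and 20 below. Of the 85 genes above, 25 passed the filter on low values through the depleted libraries alone. The counts above the range therefore support no direction.

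Many of these levels were not acquired at 4.5 hpf. Of the 85 genes above the range in both lines, 41 were also above it in both lines at 3 and 4 hpf, and of the 67 below, 40 were below it at all 3 stages; these counts were added after the values had been seen. Part of them were near all or none. A listed 0 need not mean that the RNA was absent, and whether reads were assigned to another allele or copy of the gene was not tested. Of the 85, 27 were listed at 0 in at least 1 wildtype library at 4 hpf, and of the 67, 35 were listed at 0 in at least 1 depleted library. An exact 0 can be a failed estimate, so no fold is given for them.

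The vesicle fusion gene vamp8 was at 24.4 FPKM in MZnup133 and 30.9 FPKM in Melys while all 6 wildtype libraries listed it at 0. It passed the filter on low values through the depleted libraries alone, as did sfxn5a below, so no test is given for either. Tgnup133 at 4.5 hpf held 0.382 FPKM of it, and the depleted lines already held 31.6 and 27.9 FPKM at 3 hpf. The mitochondrial carrier gene sfxn5a was at 9.44 and 5.39 FPKM and again 0 in every wildtype library. The amino acid transporter gene slc38a5b was at 43.9 and 24.2 FPKM, against 3.03 and 0.148 FPKM in wildtype at 4 hpf (3.97 ± 0.34, adjusted p = 0.0314). The palmitoyltransferase gene zdhhc4 was at 89.3 and 72.8 FPKM, against 8.37 and 5.09 FPKM (3.43 ± 0.21, adjusted p = 0.0211). Tgnup133 at 4.5 hpf held 3.53 FPKM of slc38a5b. It held 29.8 FPKM of zdhhc4, where the 6 wildtype libraries ran from 4.43 to 12.4 FPKM. The higher level of zdhhc4 was thus not particular to the depleted lines.

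On the low side, the tRNA methyltransferase gene mettl2a was listed at 0 in both depleted libraries, against 39.6 and 44.7 FPKM in wildtype at 4 hpf (adjusted p = 0.0181), and it was at 23.1 FPKM in Tgnup133. The potassium channel gene kcnn1b was listed at 0 in both depleted libraries, against 25.7 and 31.2 FPKM (adjusted p = 0.0181). The Fanconi anaemia DNA repair gene fancg was listed at 0 in both, against 12 and 22.2 FPKM (adjusted p = 0.0211), and the arginine methyltransferase gene prmt7 was listed at 0 in both, against 11.7 and 11.7 FPKM (adjusted p = 0.0272). The gene odf3l2a was at 0.862 FPKM in MZnup133 and 2.06 FPKM in Melys, against 41.9 and 42.7 FPKM (-4.18 ± 0.19, adjusted p = 0.0181). For gtf3ab, a polymerase III transcription factor gene, the values were 0 (as listed) and 6.04 FPKM, against 42.5 and 81.1 FPKM (adjusted p = 0.0181).

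Within the wildtype classes, a few genes showed the extremes. The zinc finger gene znf1044, early rising in wildtype, was at 0.501 FPKM in MZnup133 and 5.87 FPKM in Melys, against 21.7 and 47.0 FPKM in wildtype at 4 hpf (-3.36 ± 0.37, adjusted p = 0.0399). Tgnup133 at 4.5 hpf listed znf1044 at 0, where wildtype of that stage held 25.8 and 53.8 FPKM. Its low level was thus not particular to the depleted lines. The mitochondrial inner membrane organization gene micos13, early cleared in wildtype, was at 3.77 and 0.443 FPKM, against 6.69 and 11.1 FPKM (-1.88 ± 0.21, adjusted p = 0.0423). The late cleared gene rpusd1, which encodes a predicted pseudouridine synthase, was higher, at 47.7 and 34.4 FPKM, against 20.9 and 12.6 FPKM (1.27 ± 0.16, adjusted p = 0.0478).

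The 2 depleted lines also differed from each other. Set against each other at 4.5 hpf with the control set as a term, 51 genes were higher in MZnup133 than in Melys (0.378%) and 73 were lower (0.541%; limma, adjusted p under 0.05). Each line is 1 library here, so genotype, clutch and library cannot be told apart. The aspartic protease gene ctsd was at 125 FPKM in MZnup133 and listed at 0 in Melys, where wildtype at 4 hpf held 79.0 and 91.6 FPKM. The RNA-binding protein gene tia1l was at 289 FPKM in MZnup133 and 0.674 FPKM in Melys, where wildtype held 130 and 122 FPKM. Tgnup133 at 4.5 hpf held 1.56 FPKM of tia1l, near Melys, and 171 FPKM of ctsd, above MZnup133. At 3 hpf, MZnup133 already held 252 FPKM of tia1l and 108 FPKM of ctsd, and Melys listed both at 0. The phosphatase regulator gene ppp1r8b was listed at 0 in MZnup133 and at 101 FPKM in Melys, where the wildtype libraries of the 2 control sets themselves held 21.7 and 0.107 FPKM. Such gaps between wildtype libraries were part of several of these differences.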

How the data were processed

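The deposited table holds FPKM per gene, computed by the authors; Trim Galore, STAR 2.5.3a, Cufflinks 2.2.1 and GRCz11 are named per the submitters' processing notes. Repeated lines (74 of 23800) were dropped, leaving 23726 genes, 363 symbols being shared by several of them. Wildtype columns carry no control set and were assigned by the leading number shared with the mutant columns. The 13493 genes that averaged 1 FPKM or more over the 15 libraries were fitted with limma 3.58.1 (R 4.3.3) after log2(FPKM + 1) transformation: a mean per genotype and stage, a control set term, variance trend, two-sided, Benjamini-Hochberg adjustment, threshold 0.05. The fit has 2 residual and 2.36 prior degrees of freedom, so each lone depleted library was assumed to vary like wildtype. Nothing says libraries came from separate clutches; the p-values then reflect only how these libraries vary, which may be technical. In simulated data over 13493 genes, the mean of both lines was set against wildtype at 4 hpf. There 62% of genes changed by 1 and 100% of genes changed by 2 (log2) were recovered, with 4 false calls. Only genes of higher level in wildtype at 4 hpf were changed, and genes of the same level were given the same spread. Variation between clutches was not simulated. These rates check the code and do not give the power or the false calls of the real comparison. Named genes are nup133 and ahctf1, the 12 most changed each way, the largest calls of each list (or its 2 largest values), the 6 largest line differences each way, the 8 farthest beyond the wildtype range each way, and 3 per class each way; not all are printed, and genes without a symbol were skipped. Others were chosen after their values were seen. The libraries compared and the lists were chosen with earlier results of these data known. No columns were left unmapped. Of the damage response list, 1 gene is not reported here.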

Additional observations from a re-analysis of the deposited data

Results flagged for a closer look

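The named genes below differed between the lines at 4.5 hpf by the limma contrast of MZnup133 minus Melys (adjusted p under 0.05), in log2(FPKM + 1) after the control set term. Higher in MZnup133 were camta1 (8.77), cfdp1 (7.70), tia1l (7.46), CR383662.2 (7.21), ctsd (7.18), rrm2 row ENSDARG00000078069 (6.50) and sox19a (5.63). Lower in MZnup133 were ppp1r8b (-10.78), zgc:56699 (-9.19), sh3glb1a (-6.61), atp6v1g1 (-6.33), CR387989.1 (-6.21), gde1 (-6.11), xpo6 (-5.95) and rrm2 row ENSDARG00000020711 (-4.48). With 1 library in which a gene is listed at 0, these values depend on the pseudocount and are no folds.

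For camta1 the values were 435 FPKM in MZnup133 and a listed 0 in Melys, and every other library of the series was listed at 0, so the gene entered the test through that 1 library. For CR387989.1 they were a listed 0 in MZnup133 and 72.8 FPKM in Melys, and every other library was under 0.05 FPKM, so it too entered the test through 1 library. Of the 124 genes called between the lines, 21 passed the filter through the depleted libraries alone. For zgc:56699 they were 368 FPKM in MZnup133 and 864 FPKM in Melys, where wildtype at 4 hpf held 255 FPKM in the nup133 set and a listed 0 in the elys set, so the gap between the wildtype libraries enters the value. The same holds for ppp1r8b, at 21.7 and 0.107 FPKM in wildtype, and cfdp1, at 0.277 and 5.27 FPKM.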

How the results depend on the processing

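Counts of genes called are given in the order both lines, MZnup133, Melys, difference between the lines, and were 304, 300, 64 and 124. A filter at a mean of 5 FPKM gave 611, 579, 324 and 319, and no filter gave 1219, 542, 761 and 1028. With no filter the split moved to 980 higher and 239 lower for both lines, 434 and 108 for MZnup133 and 655 and 106 for Melys, against 142 and 162, 130 and 170, and 26 and 38. With the control set term left out (no replicate block) Melys had 100 calls, and with a pseudocount of 0.1 it had 28. Restricted to genes above 0 in the 4 libraries compared, an alternative added after seeing the data, Melys kept 39 calls and the line difference 73. With the pair as a replicate block in the 4 libraries alone, which leaves 1 residual degree of freedom, both lines together had 0 calls. Leaving out 1 wildtype library gave 0 calls for each of the 4 counts and also leaves 1 residual degree of freedom. Leaving out a depleted library turns the comparison of both lines into that of the other line alone, whose count is given above. Over the settings that keep both lines, their count ran from 0 to 1219. Median-ratio scaling, a common FPKM sum with or without the mitochondrially encoded genes, and leaving out Tgnup133 kept all 4 counts within 1.5 times. No named gene reversed its direction while called, but many lost their call. Among the named genes, 8 lost it with median-ratio scaling, 14 with a pseudocount of 0.1, 13 with the control set term left out and 17 with no filter. In the 4 libraries alone, 55 named genes lost their call. With a filter at a mean of 5 FPKM 0 lost it and 5 gained it.

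Genes beyond the wildtype range numbered 181 in MZnup133 and 115 in Melys at a distance of 2, against 705 and 438, and Melys had 661 with a pseudocount of 0.1. Without 1 wildtype library at a time they numbered 756 to 844 and 473 to 546.

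Class medians moved by more than the wildtype spread as follows. Median-ratio scaling gave 0.26 for early cleared genes of MZnup133, and -0.035 and 0.015 for stable genes of MZnup133 and Melys. A common FPKM sum gave 0.33, 0.048 and 0.079 for the same classes. That sum without mitochondrially encoded genes gave 0.29 for early cleared genes of MZnup133 and 0.029 for stable genes of Melys. Pseudocount 0.1 gave 0.39, and no filter 0.23, for early cleared genes of MZnup133, and no filter gave 0.00 for stable genes of Melys. A class threshold of 2 gave -0.32 and 0.52 for early rising and early cleared genes of MZnup133, and -0.26 and 0.00 for early rising and late cleared genes of Melys. Classes chosen in both control sets gave -0.32, 0.45 and 0.031 for early rising, early cleared and stable genes of MZnup133, and -0.35, 0.41 and -0.40 for early rising, late rising and late cleared genes of Melys. The wildtype library of the other set gave -0.39, 0.66, 0.41, -0.23 and 0.042 for early rising, late rising, early cleared, late cleared and stable genes of MZnup133, and -0.37, 0.52, 0.33, -0.28 and 0.034 for those of Melys. The cause was not tested. Classes chosen in both control sets, and the wildtype library of the other set, both read the classes against a library that helped choose them.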
